A study of Mus musculus with 17 samples.

Results

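The constitutive proteasome genes were followed in ribosome-bound RNA of mouse corpus callosum, the white matter tract that joins the cerebral hemispheres. The members are the protein-coding genes whose symbols begin with Psma, Psmb, Psmc or Psmd and a number, together with the activator genes Psme1 to Psme4 and the inhibitor gene Psmf1. The inducible subunits Psmb8, Psmb9 and Psmb10 were left out and serve for comparison. The rule found 43 of 58512 genes in the count files, and it used no measured value. They are 14 core particle genes, 17 regulatory particle genes, 3 chaperones of regulatory particle assembly, 5 activators, 1 inhibitor, 2 tissue-specific core genes and Psmc3ip. The last of these matches by name alone, since its product acts in meiotic recombination and is not a proteasome subunit.

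The proteasome is a barrel-shaped protease that degrades proteins tagged with ubiquitin. Its core particle stacks rings of alpha subunits, which gate the entrance, around rings of beta subunits, of which Psmb5, Psmb6 and Psmb7 carry the active sites. The regulatory particle caps the barrel: its base holds the ATPases that unfold substrates and its lid removes ubiquitin. In cells that respond to interferon, Psmb8, Psmb9 and Psmb10 can replace the constitutive active-site subunits. In cells with impaired proteasomes, the transcription factor encoded by Nfe2l1 raises proteasome genes together.

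All mice were male GFAP-Cre+/- Rpl22HA/wt animals, in which Cre expressed from the GFAP promoter switches on an HA-tagged ribosomal protein, and RNA was recovered with the tagged ribosomes. Cuprizone mice, aged 8 to 9 weeks at the start, ate chow with 0.2% cuprizone by weight for 5 weeks and then plain chow. Cuprizone is a copper chelator that kills oligodendrocytes. The labelled stages are acute demyelination for 5 weeks, the onset of remyelination for 5.5 weeks and late remyelination for 7 weeks. Mock mice matched in age and kept on a normal diet are the controls at each time. The 5-week libraries form 1 labelled batch and the later libraries another. Cuprizone and mock libraries of the same week share a batch. Where 5 weeks is set against a later week, week and batch cannot be told apart.

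Of the 17 labelled libraries, 8 repeat another library of their group with a small whole number added to many values. In each of them, 46.6% to 96.4% of values lay 1 to 10 counts above that library, among genes with 500 or more counts. Among genes with 500 or more counts, over 40% of values lay within 10 counts of each other in 11 of 136 library pairs, each inside a single group. The share was at most 4.26% in any other pair. The 9 separate libraries were used. They are 3 cuprizone and 2 mock libraries at 5.5 weeks, and 1 of each at 5 and at 7 weeks, where there is no replicate and no test within the week. Total counts ranged from 20797535 to 30400048. All 10 astrocyte markers had counts in every library. Summed oligodendrocyte markers, at 10343 to 22732 CPM (each count as a share of its TMM-scaled library total), and neuron markers, at 6160 to 12352 CPM, were of the order of the astrocyte markers, at 9118 to 19009 CPM. Transcripts of other cell types are thus part of these values, and fewer cells of a type and less RNA per cell cannot be told apart. The 7-week cuprizone library stood apart, with 34576 genes detected against at most 23980 in the other 8.

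Promoter sequence was examined because these genes are known to be controlled together. RefSeq windows of the GRCm38.p6 build, from 250 bases before to 50 bases after a gene's start, were given for 36 of the 43 genes. The motif TGACNNNGC, the core of the antioxidant response element, was searched on both strands and lay in 6 of the 39 windows of these genes (15.4%), against 12.4% of all 32851 windows. CCAAT, the box bound by NF-Y, lay in 14 of the 39 (35.9%), against 37.4% of all windows. Psmb5, Psmb6 and Psmd9 held TGACNNNGC on the gene's own strand, and Psmc6, Psmd12 and Psme4 on the opposite strand. The 120 bases before the start are shown for the 3 genes with a forward match, of which 2 encode active-site subunits and the third had the lowest adjusted p at 5.5 weeks. The match is in capitals and begins 47, 9 and 31 bases before the start in Psmb5, Psmb6 and Psmd9. The windows are chr14:54617996-54618115 on the minus strand, chr11:70525237-70525356 on the plus strand and chr5:123228070-123228189 on the plus strand.
Psmb5: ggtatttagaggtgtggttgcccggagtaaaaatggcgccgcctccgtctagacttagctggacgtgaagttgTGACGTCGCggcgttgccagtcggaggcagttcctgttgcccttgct
Psmb6: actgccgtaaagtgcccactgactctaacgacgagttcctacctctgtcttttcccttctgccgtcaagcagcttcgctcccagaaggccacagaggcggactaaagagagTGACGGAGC
Psmd9: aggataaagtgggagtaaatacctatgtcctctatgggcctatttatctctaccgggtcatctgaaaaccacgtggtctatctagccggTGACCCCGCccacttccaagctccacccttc

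At 5.5 weeks no constitutive proteasome gene passed the test, and most core and regulatory genes lay slightly below mock. Of the 43 genes, 42 were tested and 0 were called by edgeR's quasi-likelihood test at an adjusted p under 0.05, against 1.47% of the 16086 genes tested. DESeq2 and limma-voom also called 0. At an unadjusted p under 0.05, 2 members were lower and 1 was higher, against 4.64% and 6.27% of tested genes. Of the 31 core and regulatory genes, 30 had a log2 fold change below 0, against 49.6% of all tested genes, and their median was -0.14, against 0.00 for all tested genes and -0.03 for the 2283 genes with a mean of 100 CPM or more. Without mock replicate 3, 25 of the 31 lay below 0. In 15 of the 31 genes all 3 cuprizone libraries lay below both mock libraries, against 14.8% of tested genes, and in the other 16 the groups overlapped. The 31 genes share their libraries and scaling, so they are not independent of one another. In simulated data of this design the test recovered 77.5% of genes shifted by 0.58 on the log2 scale and 6.67% of those shifted by 0.32. Differences of the size seen here were thus mostly not detectable. The simulation shifted only genes with a mean of 50 CPM or more. It set each gene's spread from its level alone, so recovery may be lower for genes with more spread or lower levels.

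The active-site genes had slightly lower means in cuprizone. Psmb5 (ENSMUSG00000022193, chromosome 14), the chymotrypsin-like subunit, had 53.5, 55.8 and 62.9 CPM in cuprizone libraries, against 61.6 and 68.9 CPM in mock libraries. One cuprizone library lay just above the lower mock library, and the log2 fold change was -0.19 ± 0.12 (SE; edgeR adjusted p = 0.624). Psmb6 (ENSMUSG00000018286, chromosome 11), the caspase-like subunit, had 276, 305 and 274 CPM in cuprizone libraries, against 315 and 347 CPM in mock libraries. These groups did not overlap, their log2 difference being -0.22 ± 0.11 (SE; edgeR adjusted p = 0.503). Psmb7 (ENSMUSG00000026750, chromosome 2), the trypsin-like subunit, had 68.5, 72.7 and 82.4 CPM in cuprizone libraries, against 74.0 and 86 CPM in mock libraries. Its groups overlapped (log2 fold change -0.10 ± 0.12, SE; edgeR adjusted p = 0.817), and without mock replicate 3 the sign turned to 0.02.

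Among the other core genes, all 7 alpha and all 7 beta genes had log2 fold changes below 0, from -0.24 to -0.05. The lowest was that of Psma7, an alpha ring subunit, with 271, 299 and 273 CPM in cuprizone libraries against 320 and 344 CPM in mock libraries (log2 fold change -0.24 ± 0.11, SE; edgeR unadjusted p = 0.0426, adjusted p = 0.438). Psmb3, a beta subunit without an active site, had 120, 138 and 127 CPM in cuprizone libraries against 140 and 160 CPM in mock libraries. Psmb4, another such subunit, had 112, 129 and 131 CPM in cuprizone libraries against 140 and 144 CPM in mock libraries. In both genes every cuprizone library lay below both mock libraries, by -0.23 and -0.19 on the log2 scale.

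The regulatory particle genes overlapped the core genes in their log2 fold changes. The 6 base ATPases Psmc1 to Psmc6 lay between -0.15 and -0.11 on the log2 scale, and the 8 lid genes between -0.18 and -0.03. Psmd1, a scaffold subunit of the base, was the 1 regulatory gene above 0, with 178, 170 and 199 CPM in cuprizone libraries against 185 and 169 CPM in mock libraries (log2 fold change 0.04 ± 0.11, SE; edgeR adjusted p = 0.931). Its groups overlapped.

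Psmd9 (ENSMUSG00000029440, chromosome 5), a chaperone that helps assemble the base, had the lowest adjusted p of the members at 5.5 weeks. It had 39.7, 43.6 and 41.3 CPM in cuprizone libraries, against 53.2 and 53.9 CPM in mock libraries. The groups stood well apart, yet the log2 fold change of -0.37 ± 0.11 (SE) did not pass the test (edgeR unadjusted p = 0.00628, adjusted p = 0.176). The fit of all 17 libraries, in which repeated libraries count as replicates, called it with an edgeR adjusted p of 0.0202. Of the other assembly chaperones, Psmd5 was at 0.02 and Psmd10, known as gankyrin, at -0.12 on the log2 scale.

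No activator passed the test at 5.5 weeks, and all 5 overlapped between groups. Psme1 and Psme2 together form the interferon-inducible ring that opens the core without ATP. Psme1 had 36.6, 44.5 and 41.6 CPM in cuprizone libraries, against 39.3 and 34.6 CPM in mock libraries. Psme2 had 53.1, 61.9 and 55.6 CPM in cuprizone libraries, against 55.5 and 56.5 CPM in mock libraries. Their log2 fold changes were 0.15 ± 0.13 and 0.02 ± 0.11 (SE; edgeR adjusted p = 0.741 and 0.966). Psme3, a mainly nuclear activator, had 99.3, 89.2 and 77.4 CPM in cuprizone libraries, against 52.4 and 111 CPM in mock libraries. The 2 mock libraries enclosed all 3 cuprizone libraries, and the sign turned to -0.33 without mock replicate 1. Psme4, a nuclear activator linked to histone breakdown, had 15, 14.8 and 11.6 CPM in cuprizone libraries against 12.4 CPM in each mock library. Psmf1, an inhibitor of the core particle in vitro, was at -0.14 on the log2 scale. Reads of Psme2 and its close copy Psme2b, and of Psmb5, Psmb6 and Psmb7 and their annotated pseudogenes, may be shared in the counting.

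At 5 weeks, 40 members reached the minimum of 5 CPM in at least 1 of the 2 libraries. Of these, 1 was at least 2-fold higher in the cuprizone library and 0 were at least 2-fold lower, against 8.89% and 12.2% of the 11570 genes measured. Past 1.5-fold, 2 were higher and 0 lower, against 18.7% and 20.3% of all genes. Of the 40, 25 had a log2 ratio below 0, against 50.3% of all genes. The median log2 ratio of the 40 was -0.12, that of the 14 core genes -0.17 and that of the 17 regulatory genes -0.13, against 0.00 over all measured genes. All 14 core and 17 regulatory genes lay between -0.30 and 0.41.

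Psme3 (ENSMUSG00000078652, chromosome 11) was the gene past 2-fold, with 117 CPM in the cuprizone library against 58.3 CPM in the mock library, a ratio of 2.01 (95% counting interval 1.88 to 2.16). Its 2 mock libraries at 5.5 weeks were further apart than this pair. Psme1 had 73.4 CPM in the cuprizone library against 57.0 CPM in the mock library, and Psme2 had 85.5 CPM against 69.8 CPM. Their log2 ratios were 0.36 and 0.29. Psme4 was the lowest member at 5 weeks, with 13.7 CPM in the cuprizone library against 17.5 CPM in the mock library, a log2 ratio of -0.35. The activators thus did not share a direction.

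Among the regulatory genes, Psmd2, the scaffold subunit of the base to which ubiquitin carriers dock, was highest, with 447 CPM in the cuprizone library against 335 CPM in the mock library (log2 ratio 0.41). The base ATPase Psmc1 was lowest, with 341 CPM in the cuprizone library against 421 CPM in the mock library (log2 ratio -0.30). Psma1 was the lowest core gene, with 177 CPM in the cuprizone library against 215 CPM in the mock library (log2 ratio -0.28). Psmd9 and the lid gene Psmd8 had log2 ratios of -0.25 and -0.23, with 59.9 CPM against 71.3 CPM and 220 CPM against 259 CPM in cuprizone and mock. Psmc3ip, which is not a subunit, was at 6.46 CPM in the cuprizone library against 3.8 CPM in the mock library. The active-site genes were again a little lower after cuprizone. Psmb5 had 92.7 CPM in the cuprizone library against 104 CPM in the mock library. Psmb6 had 374 CPM against 421 CPM, and Psmb7 had 129 CPM against 150 CPM, in cuprizone and mock.

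At 7 weeks nearly all members were lower in the cuprizone library than in the mock library, as were most well-expressed genes of that library. Of 40 members measured, 38 had a log2 ratio below 0, against 62.7% of the 12173 genes measured. Past 1.5-fold, 31 were lower, against 27.6% of all genes, and past 2-fold 5 were lower, against 5.54%, and 1 was higher, against 9.9%. The median of the 31 core and regulatory genes was -0.85, and all 31 lay below 0. The median of all measured genes was -0.23, and that of the 2325 genes with a mean of 100 CPM or more was -0.61, of which 52.1% were at least 1.5-fold lower. With the median of these genes set to 0, no member was 1.5-fold lower, and the core and regulatory sums were at -0.25 and -0.16 on the log2 scale. With scaling by library size alone, 3 members were 1.5-fold lower and 0 were 2-fold lower.

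**Figure D1:**
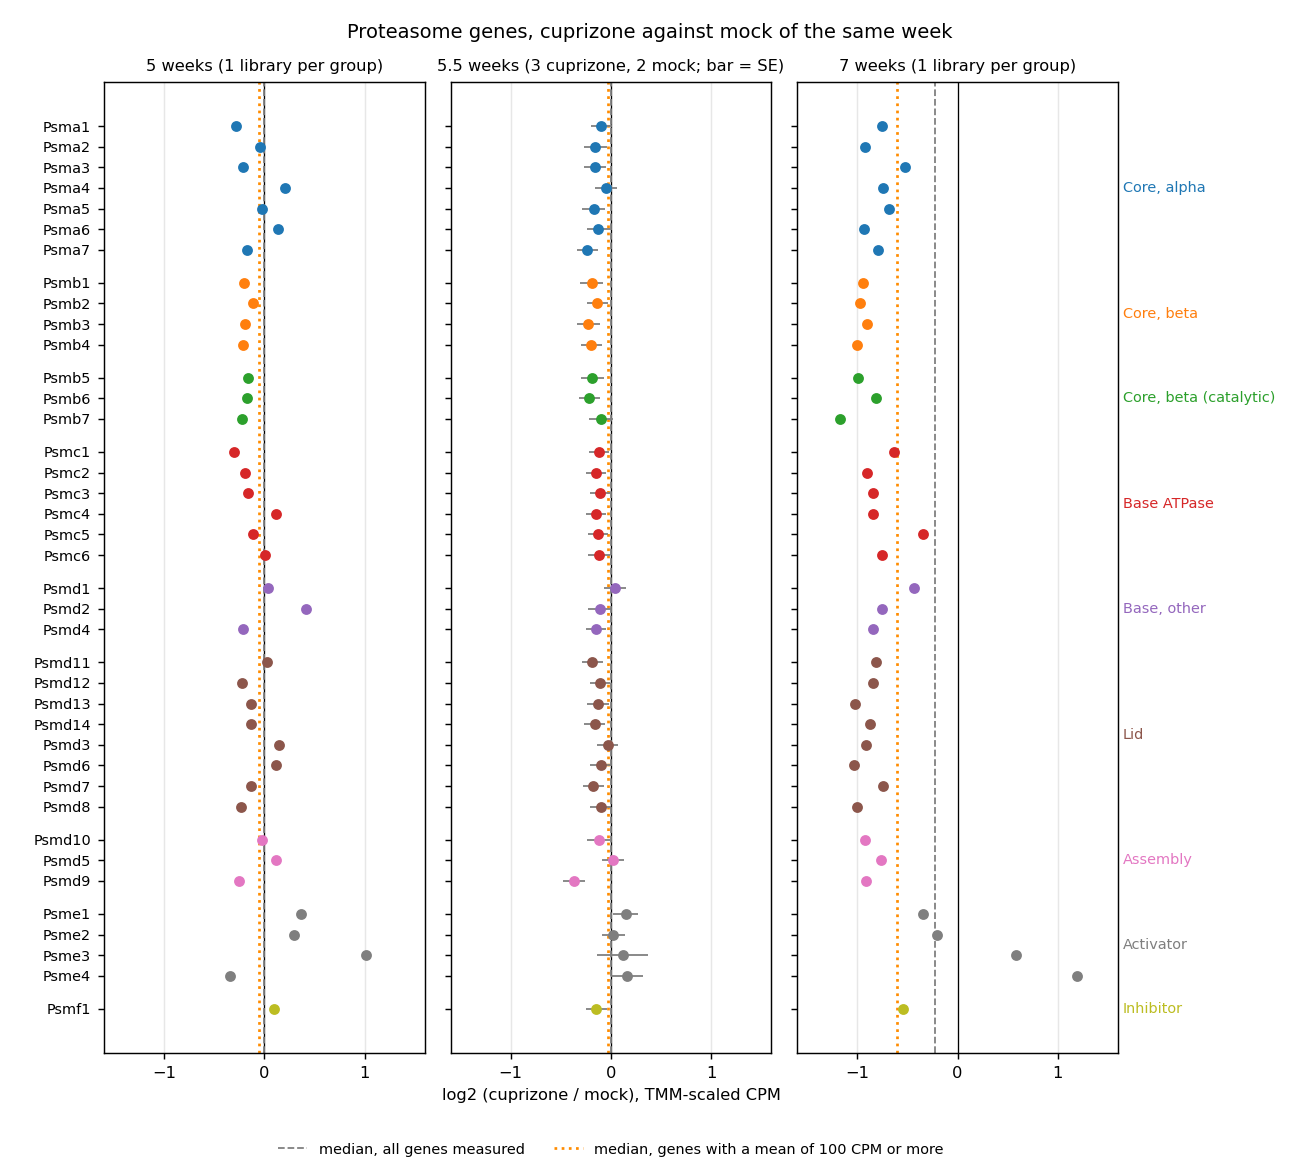
Log2 ratio of cuprizone over mock (x axis, TMM-scaled CPM) for 39 proteasome genes (rows, coloured by role) at 5, 5.5 and 7 weeks, with SE bars at 5.5 weeks only. The dashed line is the median of all genes measured and the dotted line that of genes with a mean of 100 CPM or more, and the 7-week core and regulatory genes have a median of -0.85, most of them left of both lines.

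The same 7-week cuprizone library held more RNA of endothelial and microglia markers, and had lower sums of oligodendrocyte and neuron markers. Summed markers of endothelial cells were at 171 CPM in the cuprizone library against 1.6 CPM in the mock library, with all 5 markers higher, and those of microglia at 745 CPM against 51.5 CPM, with all 8 higher. Astrocyte markers summed to 12272 CPM in the cuprizone library and 12383 CPM in the mock library. Of these 10 markers, 1 was at least 1.5-fold higher (Gfap, 3513 CPM against 1340 CPM) and 4 were at least 1.5-fold lower, against 16.6% and 27.6% of all genes. Oligodendrocyte markers summed to 14110 CPM in the cuprizone library and 20683 CPM in the mock library, with 6 of 8 lower. Neuron markers summed to 6160 CPM in the cuprizone library and 10082 CPM in the mock library, with 5 of 8 lower. Of all measured genes 62.7% were lower, and of those with a mean of 100 CPM or more 86.1%, so neither list stands out by its count. In the neuron list Snap25 had 3307 CPM in the cuprizone library against 6858 CPM in the mock library, while Syt1, Gad1 and Slc17a7 were higher in cuprizone. In the other 7 libraries used, endothelial markers were at most 2.57 CPM, with 2 of 5 counted in both 5-week libraries and 3 of 5 in all 5.5-week libraries. The part of these cells in the 7-week values was not tested.

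Psmb7 was the lowest member at 7 weeks, with 51.8 CPM in the cuprizone library against 117 CPM in the mock library, a ratio of 0.444 (95% counting interval 0.417 to 0.473). Psmb5 had 44.1 CPM in the cuprizone library against 87.8 CPM in the mock library, and Psmb6 had 232 CPM against 408 CPM. Their log2 ratios were -0.99 and -0.82, so all 3 active-site genes lay below the median of well-expressed genes. The other members past 2-fold were the beta subunit Psmb4 and the lid subunits Psmd6, Psmd13 and Psmd8. Psmb4 had 94.6 CPM in the cuprizone library against 190 CPM in the mock library. Psmd6 had 107 CPM against 220 CPM, Psmd13 had 92.9 CPM against 189 CPM and Psmd8 had 108 CPM against 216 CPM, in cuprizone and mock. The log2 ratios were -1.04 for Psmd6, -1.02 for Psmd13 and -1.01 for Psmb4, and Psmd8 had a ratio of 0.499. The base ATPase Psmc5 was the least lowered subunit, with 342 CPM in the cuprizone library against 434 CPM in the mock library (log2 ratio -0.34, or 0.27 with well-expressed genes centred on 0).

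Among the activators, Psme3 and Psme4 were higher in the 7-week cuprizone library and Psme1 and Psme2 lower. Psme4 (ENSMUSG00000040850, chromosome 11) had 30.2 CPM in the 7-week cuprizone library against 13.2 CPM in the mock library, a ratio of 2.29 (95% counting interval 2.02 to 2.60), and was the 1 member past 2-fold upward. Psme3 had 112 CPM in the cuprizone library against 74.9 CPM in the mock library, a ratio of 1.5. Psme1 had 34.7 CPM in the cuprizone library against 44.2 CPM in the mock library, and Psme2 had 55.5 CPM against 64.0 CPM. Their log2 ratios of -0.35 and -0.21 stood above that of every core gene, and turned to 0.26 and 0.40 with well-expressed genes centred on 0. Both genes were below 100 CPM, so neither is among the genes used for that centring. The median of all measured genes, -0.23, lay between their 2 log2 ratios. Psmf1 was at -0.55.

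**Figure D2:**
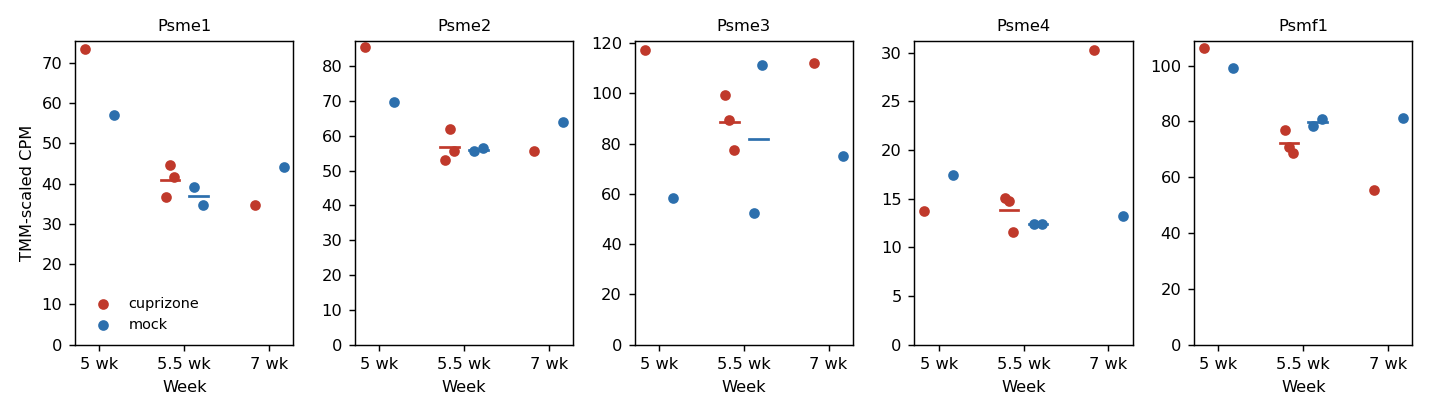
TMM-scaled CPM (y axis) of the activator genes Psme1 to Psme4 and the inhibitor gene Psmf1 in each separate library at 5, 5.5 and 7 weeks (x axis), cuprizone left of mock, with a bar at the mean where a group has several libraries. Psme4 stands at 30.2 CPM in the 7-week cuprizone library and at 13.2 CPM in its mock, while the 5.5-week mock values of Psme3 span 52.4 to 111 CPM.

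Core and regulatory particles were also compared by their summed levels, scaled within each week, so that sums are set side by side only within a week. At 5.5 weeks the core genes summed to 2013, 2233 and 2180 CPM in cuprizone libraries, against 2281 and 2553 CPM in mock libraries. The means were 2142 ± 115 CPM (SD, n = 3) in cuprizone and 2417 ± 192 CPM (SD, n = 2) in mock, a ratio of 0.886. The regulatory genes summed to 3931, 3956 and 3989 CPM in cuprizone libraries, against 4254 and 4367 CPM in mock libraries. Their means were 3959 ± 29.3 CPM (SD, n = 3) in cuprizone and 4310 ± 79.9 CPM (SD, n = 2) in mock, a ratio of 0.918. In both sums every cuprizone library lay below both mock libraries. Sums over members carry no test.

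The balance of the 2 particles is independent of scaling. The ratio of core to regulatory sums was 0.541 ± 0.0266 (SD, n = 3) in cuprizone and 0.560 ± 0.0342 (SD, n = 2) in mock at 5.5 weeks. These groups overlapped, so any difference was within the spread between libraries. At 5 weeks the core summed to 3047 CPM in the cuprizone library against 3355 CPM in the mock library, and the regulatory genes to 4553 CPM against 4767 CPM, a log2 ratio of -0.07 that turned to 0.03 with scaling by library size alone. At 7 weeks the core summed to 1697 CPM in the cuprizone library against 3065 CPM in the mock library, and the regulatory genes to 2955 CPM against 5023 CPM. The ratio of core to regulatory sums was 0.669 in cuprizone and 0.704 in mock at 5 weeks, and 0.574 in cuprizone and 0.610 in mock at 7 weeks. These differences are no larger than the gap between the 2 mock libraries at 5.5 weeks, which were at 0.536 and 0.585.

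**Figure D3:**
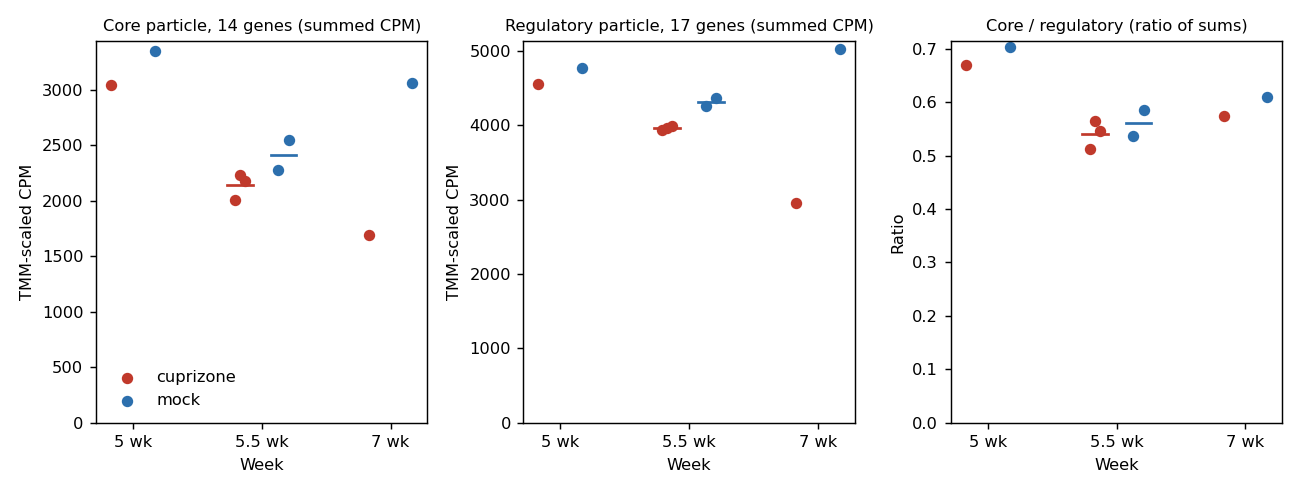
Summed TMM-scaled CPM (y axis) of the 14 core genes and the 17 regulatory genes, and the ratio of the 2 sums, in each separate library at 5, 5.5 and 7 weeks (x axis), cuprizone left of mock, with a bar at the group mean at 5.5 weeks. With this scaling both sums are lower in cuprizone libraries at each week, most at 7 weeks (with library size alone the 5-week regulatory sum is higher by 0.03 on the log2 scale), while the ratio of the sums overlaps between groups at 5.5 weeks.

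Within each particle the genes differed widely in level per length. Per kilobase of exon and averaged over the 5 libraries at 5.5 weeks, the core genes ran from 22.4 CPM for Psmb7 to 162 CPM for Psmb6, a 7.23-fold span. The regulatory genes ran from 24.8 CPM for Psmd1 to 275 CPM for Psmc5, and the assembly chaperones from 6.39 CPM for Psmd9 to 31 CPM for Psmd10. Exon lengths join all annotated transcripts of a gene, so a gene with long rare transcripts is given too low a level.

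The 2 tissue-specific core genes were near the limit of counting. Psmb11, the subunit of the thymic proteasome, had 8, 12 and 10 counts in cuprizone libraries at 5.5 weeks, against 3 and 4 counts in mock libraries (edgeR unadjusted p = 0.0211, adjusted p = 0.327). Psma8, the alpha subunit of the testis proteasome, had 53 counts in the 5-week cuprizone library and 0 in the mock library, which is at least 16.8-fold higher with the mock library set at a floor of 3 counts. The exact 95% counting interval of this ratio begins at 13.2. At 5.5 weeks it had 6 to 8 counts in cuprizone and 6 to 10 counts in mock libraries and was not tested. At 7 weeks it had 33 counts in the cuprizone library against 10 in the mock library.

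Of the inducible subunits, Psmb8 and Psmb9 rose at 5.5 weeks and Psmb10 did not pass the test. Psmb8, the inducible counterpart of Psmb5, rose to 9.38 ± 1.29 CPM (SD, n = 3) in cuprizone at 5.5 weeks, against 3.56 ± 0.682 CPM (SD, n = 2) in mock (log2 fold change 1.39 ± 0.20, SE; edgeR adjusted p = 0.00596). Its libraries were at 8.38, 10.8 and 8.94 CPM in cuprizone, against 3.08 and 4.05 CPM in mock, with no overlap. Psmb9, the counterpart of Psmb6, rose to 3.44 ± 0.717 CPM (SD, n = 3) in cuprizone, against 1.39 ± 0.347 CPM (SD, n = 2) in mock (log2 fold change 1.31 ± 0.27, SE; edgeR adjusted p = 0.0387). Its libraries were at 2.94, 3.11 and 4.26 CPM in cuprizone, against 1.14 and 1.63 CPM in mock, again with no overlap. Psmb10, the counterpart of Psmb7, stood at 57.9 ± 6.03 CPM (SD, n = 3) in cuprizone and 58.5 ± 1.40 CPM (SD, n = 2) in mock (edgeR adjusted p = 0.978). Its groups overlapped, with 54.0, 64.8 and 54.8 CPM in cuprizone libraries against 57.5 and 59.5 CPM in mock libraries. The call of Psmb8 was lost without mock replicate 1 (edgeR adjusted p = 0.0791), and that of Psmb9 without either mock replicate or cuprizone replicate 3 (edgeR adjusted p 0.120 to 0.224). Psmb9 also missed the threshold with limma-voom (adjusted p = 0.0532) and with a filter of 1 CPM in all 5 libraries (edgeR adjusted p = 0.0507). At 5 weeks Psmb8 had 24.5 CPM in the cuprizone library against 9.12 CPM in the mock library, and Psmb9 had 7.25 CPM against 1.46 CPM. At 7 weeks Psmb8 had 15.4 CPM in the cuprizone library against 5.76 CPM in the mock library, and Psmb9 had 7.20 CPM against 2.17 CPM. With this scaling Psmb10 was lower in cuprizone at both weeks, with 86.8 CPM in the cuprizone library against 93.9 CPM in the mock library at 5 weeks, and 62.2 CPM against 76.3 CPM at 7 weeks. At 7 weeks its log2 ratio of -0.29 was near the median of all measured genes, -0.23, and above that of genes with a mean of 100 CPM or more, -0.61. Psmb10 was not followed under other scalings at these 2 weeks.

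Set per kilobase of exon beside its constitutive partner in the same library, which removes the scaling, Psmb8 was at 4.17%, 5.16% and 3.78% of Psmb5 in cuprizone libraries at 5.5 weeks, against 1.33% and 1.56% in mock libraries. Every cuprizone library lay above both mock libraries. It was at 7.04% in the cuprizone library against 2.34% in the mock library at 5 weeks, and at 9.28% against 1.74% at 7 weeks. Psmb9 was at 0.621 ± 0.150% of Psmb6 (SD, n = 3) in cuprizone and 0.213 ± 0.0392% (SD, n = 2) in mock at 5.5 weeks. Its share was 0.993% in the cuprizone library against 0.178% in the mock library at 5 weeks, and 1.59% against 0.273% at 7 weeks. Psmb10 was at 157 ± 22.7% of Psmb7 (SD, n = 3) in cuprizone and 147 ± 12.2% (SD, n = 2) in mock at 5.5 weeks, where the groups overlapped. It was at 135% in the cuprizone library against 125% in the mock library at 5 weeks, and at 241% against 131% at 7 weeks. Without division by exon length, Psmb10 lay below Psmb7 in every library used but the 7-week cuprizone library (62.2 CPM against 51.8 CPM). In mock libraries at 5.5 weeks the means were 58.5 CPM for Psmb10 and 80.0 CPM for Psmb7. Exon lengths join all annotated transcripts (3421 bases for Psmb7), so the Psmb10 percentages do not show which gene was higher. Their comparison between cuprizone and mock does not depend on the lengths. Microglia, which express inducible subunits, gave marker sums of 41.6 to 53.7 CPM in cuprizone and 30.2 to 35.3 CPM in mock libraries at 5.5 weeks, and of 70.6 CPM in cuprizone and 39.98 CPM in mock at 5 weeks. At 7 weeks the microglia marker sums were 745 CPM in the cuprizone library and 51.5 CPM in the mock library. The part of microglia in these values was not tested.

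**Figure D4:**
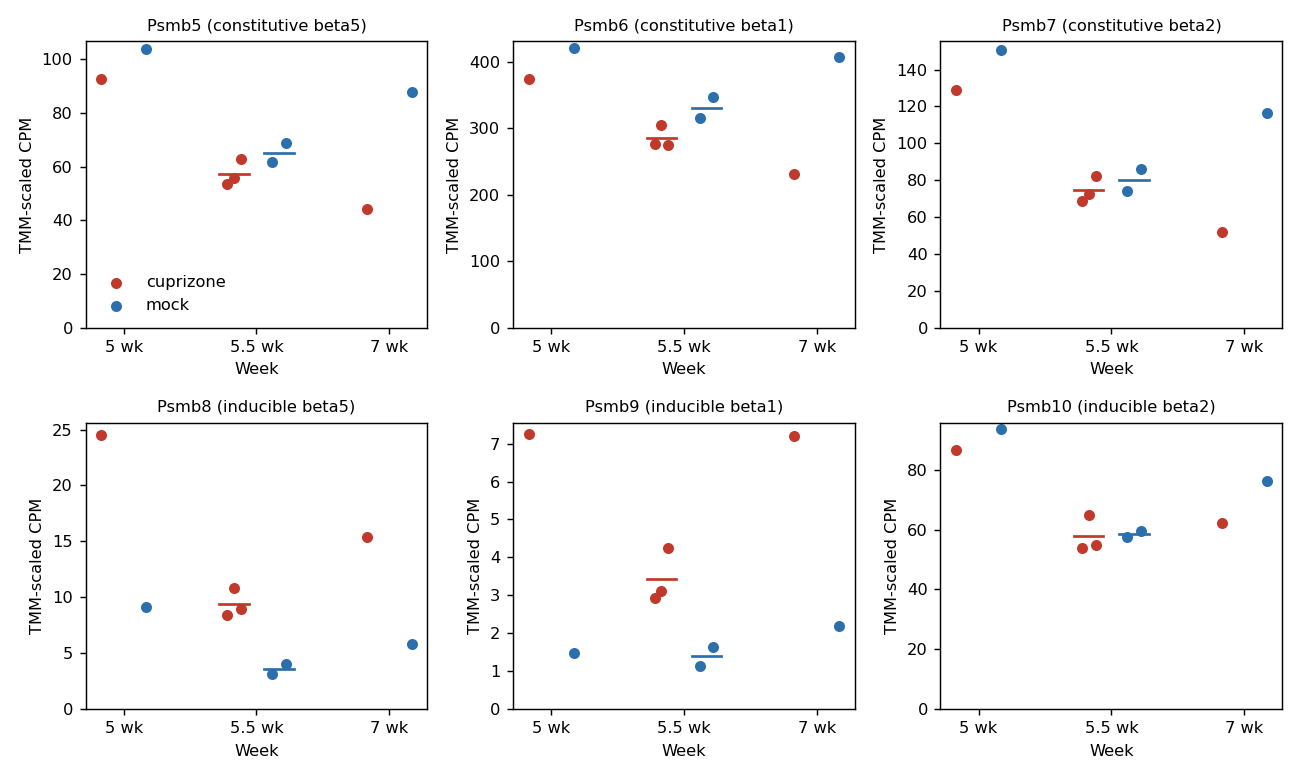
TMM-scaled CPM (y axis) of the constitutive active-site genes (top row) and their inducible counterparts (bottom row) in each separate library at 5, 5.5 and 7 weeks (x axis), cuprizone left of mock, with a bar at the mean where a group has several libraries. Psmb8 and Psmb9 are higher in cuprizone than in mock libraries at each week, while Psmb5 and Psmb6 have lower means or single values in cuprizone at each week.

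The wider pathway was read from lists. Of 18 assembly and associated factors, among them the core chaperones Psmg1 to Psmg4 and Pomp, 0 were called at 5.5 weeks by edgeR, with 1 at an unadjusted p under 0.05 and a median log2 fold change of -0.14, equal to that of the subunits. At 5 weeks 0 of 18 were past 2-fold (median -0.08), and at 7 weeks 1 was lower, Fam192a at -1.03, a binding partner of the Psme3 activator (median -0.69). Of 20 genes of ubiquitin supply and delivery, 0 were called at 5.5 weeks by edgeR, 0 had an unadjusted p under 0.05, and the median was -0.03. At 5 weeks 2 were at least 2-fold higher, among them the p97 cofactor Faf1 at 1.16 on the log2 scale, and 0 lower. At 7 weeks 1 was at least 2-fold higher and 1 lower. Each of these shares is to be read against 8.89% higher and 12.2% lower of all genes at 5 weeks, and 9.9% higher and 5.54% lower at 7 weeks.

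Among 14 genes that control proteasome transcription, 1 of 14 was called at 5.5 weeks, against 1.47% of all tested genes. Stat3, a cytokine-activated transcription factor, rose to 145 ± 13.3 CPM (SD, n = 3) in cuprizone, against 94.9 ± 1.80 CPM (SD, n = 2) in mock (log2 fold change 0.61 ± 0.11, SE; edgeR adjusted p = 0.0213). The call was lost without cuprizone replicate 1 or either mock replicate (edgeR adjusted p 0.0992 to 0.134). Nfe2l1 was at 0.06 on the log2 scale at 5.5 weeks (edgeR adjusted p = 0.887), at -0.26 at 5 weeks and at -0.19 at 7 weeks. Its relative Nfe2l2, the main factor of the oxidative stress response, had 77.6 CPM in the 5-week cuprizone library against 23.8 CPM in the mock library, a ratio of 3.25. At 5.5 weeks Nfe2l2 had 35.9 ± 1.47 CPM (SD, n = 3) in cuprizone and 26.6 ± 3.13 CPM (SD, n = 2) in mock (edgeR adjusted p = 0.159), and at 7 weeks its log2 ratio was -0.12. At 5 weeks 3 of 12 measured genes of the list were at least 2-fold higher, namely Nfe2l2, its partner Mafk at 1.51 and Stat3 at 1.5, against 8.89% of all genes. At 7 weeks 1 of 13 was lower, Mafk at -1.04, against 5.54% of all genes, and 0 were higher, against 9.9%.

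Of 12 genes of the inducible proteasome and peptide loading, 4 rose at 5.5 weeks and 0 fell, against 1.08% and 0.392% of all tested genes. Among them are Psmb8, Psmb9 and the MHC class I light chain B2m. B2m had a log2 fold change of 0.65 (edgeR adjusted p = 0.0377), and its call was lost without any 1 library other than cuprizone replicate 1. At 5 weeks 2 of 11 measured genes were at least 2-fold higher and 4 lower, against 8.89% and 12.2% of all genes. The lower ones were Calr at -1.77, Erap1 at -1.72, Pdia3 at -1.59 and Tapbp at -1.5 on the log2 scale, all of which act in the endoplasmic reticulum. At 7 weeks 5 of 12 were higher and 0 lower, against 9.9% and 5.54% of all genes, with the peptide transporter genes Tap1 at 2.33 and Tap2 at 1.12 among them.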

How the data were processed

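Bulk RNA-seq was made from RNA bound to HA-tagged ribosomes of corpus callosum. The deposited values are whole-number counts per Ensembl gene, not normalized. Per the submitters' processing notes FastQC 0.11.9, STAR 2.5.4b and featureCounts 1.6.0 were used. The notes list both GRCm38 (mm10) and GRCm39 (mm39) with no role for either, so gene coordinates are not given from the files. Whether counting used strand is not given in the sources used here. Symbols came from GENCODE M21, which named 99.4% of 55471 identifiers in 1 batch and 94.0% of 55414 in the other. The members and gene lists were chosen with earlier results of these data known.

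The 8 deposited libraries whose counts repeat another library were used only in alternatives. At 5.5 weeks all genes kept by filterByExpr with a minimum count of 10 were TMM-scaled and tested two-sided with edgeR 4.0.16 (quasi-likelihood, robust; R 4.3.3) and adjusted by Benjamini-Hochberg over all genes at 0.05. The labels call the libraries biological replicates, so p-values measure the spread between these libraries. At 5 and 7 weeks log2 ratios of TMM-scaled CPM (prior count 2, at least 5 CPM in 1 library) were taken, with exact Clopper-Pearson 95% intervals of count ratios. Intervals and floors cover counting error only, since reads carry no molecular identifiers. DESeq2 1.42.0 and limma-voom 3.58.1, other scalings, filters, library sets and libraries left out were alternatives. Simulated data of the 5.5-week design gave 6 false calls in 15870 genes. Values by library are given for Psmb5, Psmb6, Psmb7, Psme1, Psme2, members called at 5.5 weeks and the 5 highest and 5 lowest measured members of each comparison, and for Psmd9, Psma8 and the inducible subunits. Some genes of the pathway lists are counted but not reported here by name. Figures used matplotlib 3.10.9.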

Additional observations from a re-analysis of the deposited data

Results flagged for a closer look

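The cuprizone effect at 7 weeks differed from that at 5.5 weeks in 21 members, by an interaction contrast in an edgeR fit of the 9 separate libraries, chosen after the data were seen. This fit assumes that the lone 5-week and 7-week libraries vary like the 5.5-week groups. The contrast was run with TMM scaling alone. The 7-week core and regulatory sums moved toward 0 with library size alone or with well-expressed genes centred, so the sizes of these differences depend on the scaling. Of the 20292 genes tested, 17.2% were called, 6.92% with a negative difference. Among the 2293 genes with a mean of 100 CPM or more, 29.6% had a negative call and the median difference was -0.48, against -0.58 for the members and 0.09 for all genes. The 7-week cuprizone library is the one with 171 CPM of endothelial and 745 CPM of microglia markers, and the part of this in the differences was not tested.

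The negative differences on the log2 scale (7-week effect minus 5.5-week effect) concerned 7 core genes, with Psma2 at -0.68, Psma6 at -0.71, Psmb1 at -0.65, Psmb2 at -0.75, Psmb4 at -0.72, Psmb5 at -0.71 and Psmb7 at -0.98. Among the base genes Psmc2 was at -0.66, Psmc3 at -0.63, Psmc4 at -0.60 and Psmd4 at -0.61. In the lid Psmd3 was at -0.79, Psmd6 at -0.84, Psmd8 at -0.81, Psmd12 at -0.64, Psmd13 at -0.80 and Psmd14 at -0.62. The chaperones Psmd5 and Psmd10 were at -0.70 and -0.71. The positive differences were those of the activator Psme4 at 1.13 (edgeR adjusted p = 0.0122) and of Psme2b at 2.66 (edgeR adjusted p = 0.0491). Psme2b had 50 counts in the 7-week cuprizone library against 8 in the mock library, and it may share reads with Psme2. Over all genes, positive calls outnumbered negative ones by the shares above, so these positive members do not stand out by their number.

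Between 5 and 5.5 weeks the effect differed in 1 member, the testis subunit Psma8, which had 53 counts in the 5-week cuprizone library against 0 in the mock library (at least 16.8-fold higher with the mock library set at a floor of 3 counts, with a 95% counting interval from 13.2) and 6 to 10 counts in the 5.5-week libraries. In this contrast 23.2% of the 20292 genes were called. Here the week and the labelled batch cannot be told apart.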

How the results depend on the processing

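At 5.5 weeks the number of members called was 0 under each alternative run other than the fit of all 17 libraries, which called 1 (Psmd9). With 1 library left out, the genes called over the whole table ranged from 65 without mock replicate 3 and 88 without mock replicate 1 to 274 without cuprizone replicate 2, against 236. Under the other settings they ranged from 136 with 1 CPM in all 5 libraries to 789 with all 17 libraries. The median of core and regulatory genes was -0.14, with a range of -0.21 to -0.090 when 1 library was left out and -0.086 with all 17. The core sum, at -0.17 on the log2 scale, ranged from -0.25 to -0.078, and the regulatory sum, at -0.12, from -0.14 to -0.090, when 1 library was left out. The sums nearest to 0 were those without mock replicate 3. The regulatory sum was -0.097 with the deposited libraries averaged and -0.090 with well-expressed genes (mean of 100 CPM or more) centred on 0. Of the 31 core and regulatory genes, 25 lay below 0 without mock replicate 3 and 30 or 31 without any 1 of the others. Among the genes followed singly through every setting, signs turned for 5 with 1 library left out. The range was -0.042 to 0.069 for Psme2 (negative without cuprizone replicate 2), -0.024 to 0.11 for Psmd1 (negative without cuprizone replicate 3 or mock replicate 3), -0.33 to 0.77 for Psme3 (negative without mock replicate 1), -0.21 to 0.024 for Psmb7 (positive without mock replicate 3) and -0.10 to 0.033 for Psmb10. Psmb10 was also at 0.0096 with all 6 libraries as deposited and 0.029 with all 17.

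A replicate block over the labelled numbers called 0 members and 750 genes, with a lowest member adjusted p of 0.0511 (Psmd9), and turned the sign of Psme2 to -0.044. Same-numbered libraries deviated with correlations of 0.04 and -0.08. With only 2 mock libraries, whose deviations mirror each other, these values cannot show whether same-numbered libraries were paired.

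At 5 weeks 2 members were past 2-fold upward with a minimum of 1 CPM or with none. The core sum of -0.14 became -0.11 with DESeq2 size factors, -0.042 with library size, -0.087 with well-expressed genes centred and -0.17 as a median of genes. The regulatory sum of -0.07 became -0.042, 0.031, -0.014 and -0.13 under the same settings, and -0.096 with deposited libraries averaged, so its sign depends on the scaling. At 7 weeks the upward count of 1 became 2 with library size or well-expressed genes centred, and 3 with a minimum of 1 CPM, with none, or in the 9-library fit. The downward count of 5 became 0 with library size or either centring and 1 with deposited libraries averaged. The 9-library fit, which counts calls by adjusted p and not by fold, called 31 members lower, against 15.4% of all genes. Over all genes that fit called more higher than lower, so its 3 higher members do not stand out by their number. The core sum of -0.85 became -0.43 with library size, -0.73 with libraries averaged, -0.63 with all genes centred, -0.25 with well-expressed genes centred and -0.91 as a median. The regulatory sum of -0.77 became -0.34, -0.70, -0.54, -0.16 and -0.85. The cause of these shifts was not tested. Lone libraries at 5 and 7 weeks limit what depth could add.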
